A study of Mus musculus with 12 samples.

Results

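Autophagy machinery and receptors formed a set of 38 genes out of the 25192 genes counted in RAW264.7, an established mouse cell line with macrophage features. The set took in every gene whose symbol is Atg followed by a number, with or without a letter or an l1 or l2 ending, together with 20 named partners: the ULK1 kinases and their scaffold, the class III phosphatidylinositol 3-kinase subunits, the ATG8 family, the WIPI proteins and the cargo receptors. The rule uses no measured value, but it was set with earlier results of these data known. Poly(A) RNA was sequenced in 12 libraries, 4 in each of 3 groups. Control cells were untreated. The LPS group received lipopolysaccharide, the bacterial cell wall component sensed by Toll-like receptor 4 (TLR4), at 1 µg/mL for 24 h. The third group was pretreated for 12 h with 10 µM ferulic acid, a phenolic compound found in plants, and afterwards received LPS at that same dose and time, and is called ferulic acid plus LPS. The series title names TLR4-mediated macrophage activation and peroxiredoxin 1 as the subject, and no group had ferulic acid without LPS. Whether replicate libraries were grown as separate cultures is not in the labels. The p-values therefore cover only library-to-library spread, which may be technical.

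In autophagy a cell encloses part of its cytoplasm, a damaged organelle or a bacterium in a growing membrane, the phagophore, which closes into an autophagosome and fuses with lysosomes. The ULK1 kinase complex starts this, the class III phosphatidylinositol 3-kinase marks the membrane with its lipid, ATG9, ATG2 and WIPI proteins bring and bind lipid, and ubiquitin-like conjugation attaches ATG8 proteins (LC3 and GABARAP) to the membrane. Cargo receptors such as p62, the product of Sqstm1, hold ubiquitin-tagged cargo and ATG8 proteins together, and in macrophages they take part in the clearance of bacteria and in limiting inflammation. RNA levels do not measure how fast autophagosomes form or are degraded.

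Total counts per library ran from 32548423 to 49961581. CPM is the read count per 1e+06 reads of a library scaled by the TMM method. All 9 macrophage markers looked up were in the table, and their summed level lay between 4394 and 4835 CPM in control libraries, 3068 and 3335 CPM after LPS alone, and 2881 and 3319 CPM after ferulic acid plus LPS, with Mertk at 0 in every control and every ferulic acid plus LPS library. Single markers went both ways between control and LPS means, from 2412 to 395 CPM for Lyz2 and 1040 to 129 for Csf1r, but from 292 to 1049 for Cd14 and 38 to 337 for Adgre1. Summed markers of T cells, B cells, fibroblasts, epithelial and endothelial cells reached at most 2.87 CPM in any library. On the second principal component ferulic acid plus LPS libraries 1 (-46.5) and 4 (-90.6) stood apart from libraries 2 (29.1) and 3 (8.62) of that group and from the LPS libraries (14.8 to 46.6). These components held 74.2% (the first) and 6.75% (the second) of the variance. On the first, library 2 of ferulic acid plus LPS stood apart at 60.9, with the other 7 LPS-treated libraries at 75.4 to 97.6. The comparison of both LPS-treated groups is therefore given with all libraries, without 1 and 4, and without 2 and 3. In bulk RNA, fewer cells that express a gene and less of its RNA per cell cannot be told apart.

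Levels between genes were compared on FPKM, which divides by gene length and by library total, with no TMM scaling. On log2(FPKM + 0.1) the all-gene median was 0.88 lower in LPS than in control cells, so differences in FPKM between these groups carry that shift. In control cells Gabarap (182 ± 17.5 FPKM, SD, n = 4) and Sqstm1 (169 ± 4.07) were the 2 highest of the 38 genes, and their libraries overlapped. Gabarapl1 (27.8 ± 1.68) and Gabarapl2 (27.6 ± 3.32) came next, also overlapping, followed by Atg101 (23.2 ± 1.45) and Atg13 (20.2 ± 0.516). After LPS the order at the top was Sqstm1 (1468 ± 221 FPKM), Gabarap (521 ± 23.3) and Gabarapl1 (39.0 ± 6.79), with no overlap between any of these 3. The order of the same 3 in ferulic acid plus LPS libraries was Sqstm1 (979 ± 284), Gabarap (519 ± 101) and Gabarapl1 (34.0 ± 16.8). Optn, which encodes the receptor optineurin, was lowest in all groups, at 0.0883 ± 0.0780 FPKM in control and 0.159 ± 0.0961 in LPS cells. The plot of CPM by library shows all 38 genes in their role groups.

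**Figure D1:**
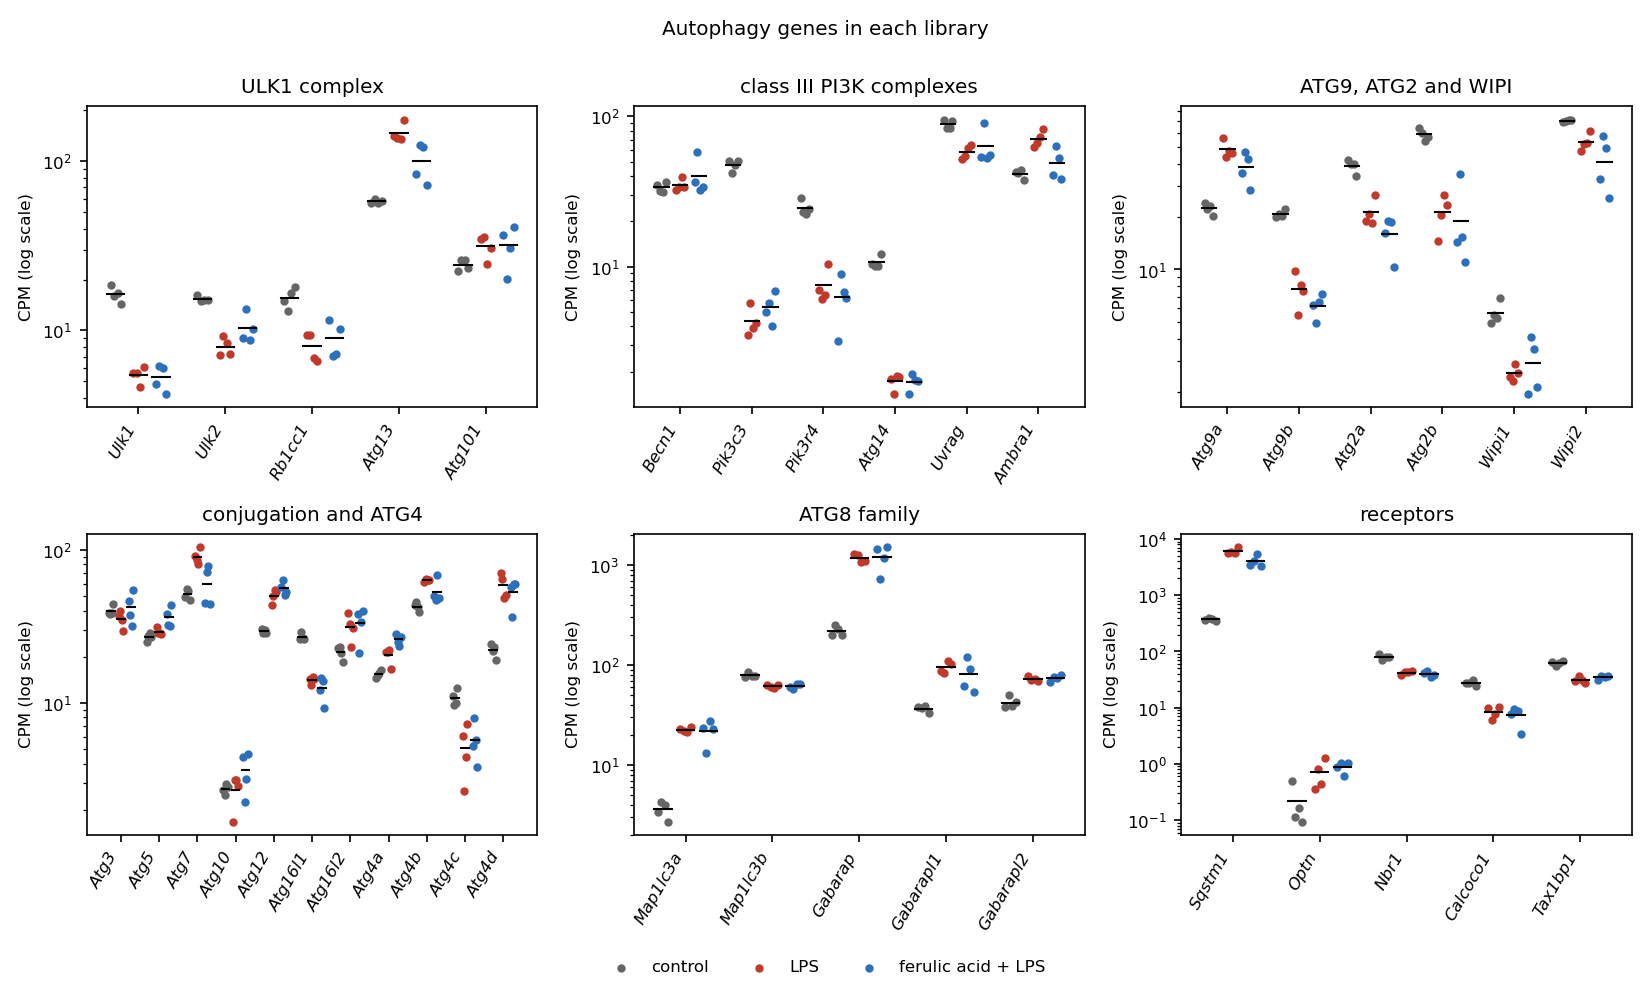
Level of each of the 38 autophagy genes in each library (CPM, log scale), in panels by role; points are libraries, black bars are means of 4 libraries, grey is control, red LPS and blue ferulic acid plus LPS. Sqstm1 moves from 354 to 387 CPM in control to 5570 to 7098 CPM in LPS libraries, while Pik3c3 moves from 42.0 to 50.3 CPM to 3.52 to 5.71 CPM.

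LPS was first set against control, to see how these genes changed with 24 h of stimulation. The largest rises were in the receptor gene Sqstm1 and the ATG8 genes Map1lc3a and Gabarap. Pik3c3 and Atg14, genes of the class III phosphatidylinositol 3-kinase complexes, had the largest falls. Their role groups did not move as a whole. With the calls defined below, 3 of 5 receptor genes and 1 of 5 ATG8 genes were lower, and 1 of 6 kinase complex genes was higher. Values in parentheses before an SE are log2 fold changes, with adjusted p-values from the same test. A gene was called where edgeR's quasi-likelihood F test gave a Benjamini-Hochberg adjusted p under 0.05 over the 14065 genes tested. All 38 members passed the low-count filter, 15 were called higher and 17 lower, and 6 were not called. By unadjusted p under 0.05 it was 32 members and 75.5% of all genes. Across all genes tested 73.8% were called, 35.6% higher and 38.3% lower, and of the members 84.2% were called. Libraries of both groups were fully separate for 32 members, against 75.3% of all genes, and the members' median log2 fold change of -0.10 equalled that of all genes (-0.10).

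The direction of many of these calls depended on scaling. TMM factors were 1.49 to 1.55 in control and 0.764 to 0.854 in LPS libraries, and scaling by library size alone moved the all-gene median from -0.10 to -0.99 (log2) and the members' split from 15 higher and 17 lower to 4 higher and 24 lower (all genes 17.5% and 59%). Removing the trend with gene length in each library gave 18 higher and 10 lower (all genes 38.1% and 31.9%). In control libraries log2 CPM relative to the LPS mean rose with log2 gene length (slope 0.465 ± 0.0408, SD, n = 4), and the LPS fold change ran against gene length across all genes (Spearman rho -0.349 over 14065 genes) and across the members (rho -0.366 over 38 genes, which share libraries and are not replicates). Under all 23 alternative settings that gave a value, 14 members kept their call and sign. No such count was made over all genes, so the 14 describe these members and not a trait of the set. Sqstm1, Map1lc3a, Gabarap and Atg4d stayed higher, and Pik3c3, Atg14, Calcoco1, Pik3r4, Ulk1, Atg9b, Wipi1, Atg4c, Ulk2 and Nbr1 stayed lower. The plot of the LPS response sets the 3 scalings side by side.

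**Figure D2:**
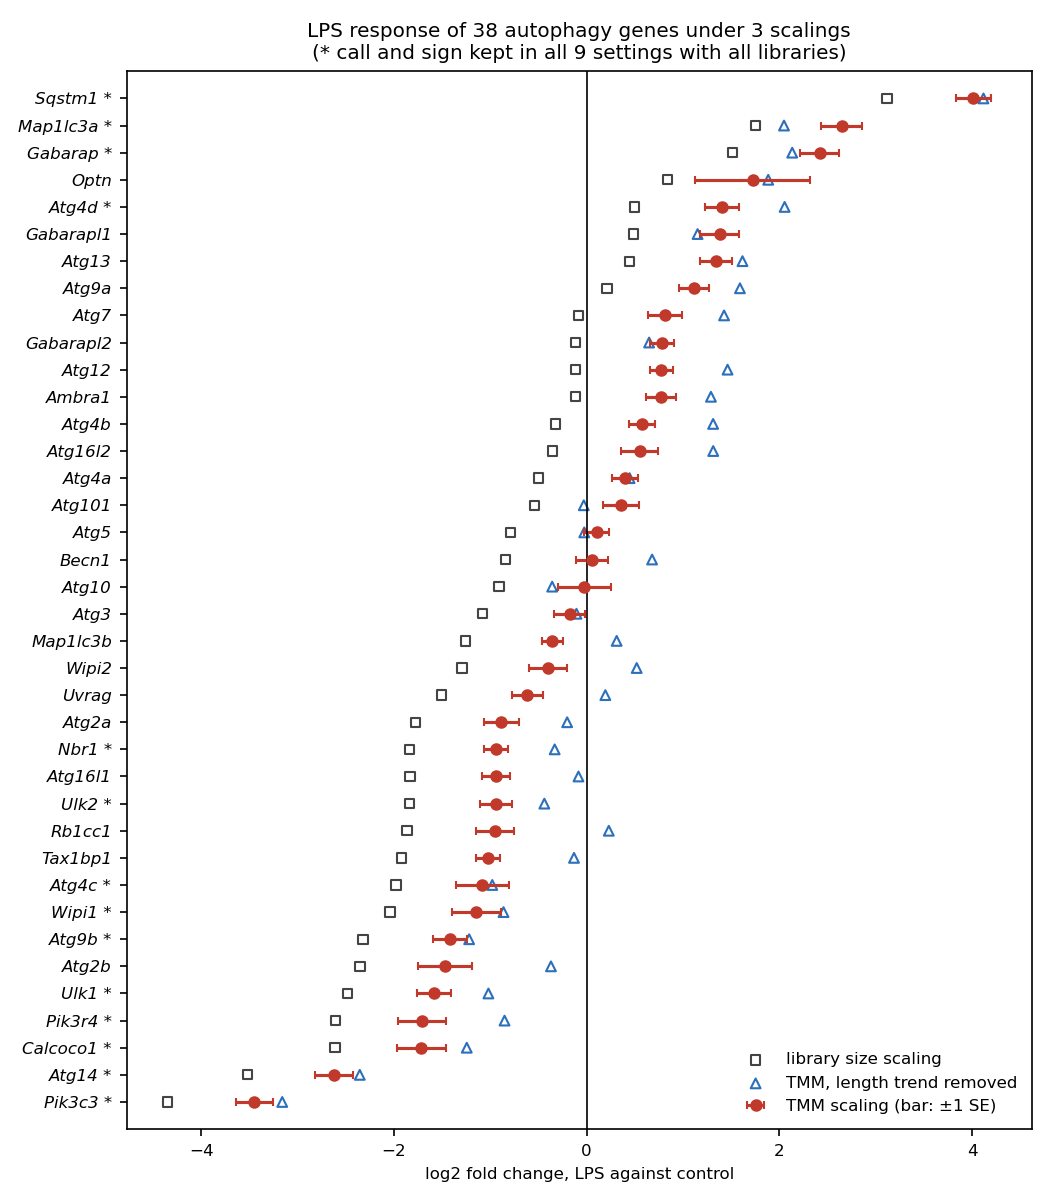
Log2 fold change of LPS against control for the 38 genes, with TMM scaling (red, bars ±1 SE), library size scaling (open squares) and TMM with the length trend removed (open triangles); a star marks genes that kept call and sign in all 9 settings with all libraries. Sqstm1, Map1lc3a, Gabarap and Atg4d lie right of 0 and Pik3c3 and Atg14 left of 0 under all 3, while genes in the middle, such as Map1lc3b and Gabarapl2, cross 0.

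Cargo receptors held the largest rise. Sqstm1 encodes p62, the receptor that links ubiquitin-tagged cargo to ATG8 proteins and also binds the NRF2 inhibitor KEAP1. It measured 369, 387, 385 and 354 CPM in the 4 control libraries, 5570, 5783, 5666 and 7098 CPM in the LPS libraries, and 3422, 4043, 5318 and 3264 CPM in the ferulic acid plus LPS libraries. Every LPS library lay above every control library, 16.1-fold by the fit (log2 fold change 4.01, SE 0.18, adjusted p = 9.0e-12; 3.12 with library size scaling and 4.12 with the length trend removed). Sqstm1 made up 83.0% ± 1.32 of the receptors' summed FPKM in control and 99.4% ± 0.0454 in LPS libraries, as the sum itself went from 204 ± 3.84 to 1477 ± 222 FPKM. An exon of Mrnip overlaps Sqstm1 by 580 bp on the opposite strand in GENCODE vM21, which was read here for overlaps only. Mrnip had 1050 reads in all against 1438269 for Sqstm1. Whether reads were counted by strand is not stated, so reads of the overlap cannot be assigned.

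Calcoco1, which encodes an ATG8-binding receptor of endoplasmic reticulum autophagy, stood at 27.2, 27.4, 31.5 and 24.5 CPM in control and 9.87, 5.92, 7.61 and 10.3 CPM in LPS libraries, with no overlap. It fell by 1.71 on the log2 scale (SE 0.25, adjusted p = 1.2e-05; -2.61 with library size scaling and -1.24 with the length trend removed). Ferulic acid plus LPS libraries had 7.77, 9.60, 8.75 and 3.42 CPM. Nbr1, a ubiquitin-binding receptor of aggregates and peroxisomes, fell from 80.1 ± 7.43 to 41.8 ± 2.97 CPM (-0.94, SE 0.13, adjusted p = 3.9e-06; -1.83 with library size scaling and -0.33 with the length trend removed). Tax1bp1, another ubiquitin-binding receptor, fell from 62.9 ± 5.04 to 31.0 ± 3.45 CPM with TMM scaling (-1.02, SE 0.12, adjusted p = 1.5e-06), a call that was lost with the length trend removed (-0.13). Optn had only 52 reads in the 4 control and 98 in the 4 LPS libraries, a ratio of 3.4 (95% exact binomial interval 2.38 to 4.80, counting error only), and 29 of the control reads were in library 1. Its libraries were 0.499, 0.112, 0.165 and 0.0942 CPM in control, 0.363, 0.800, 0.446 and 1.29 CPM in LPS, and 0.895, 1.05, 0.618 and 1.03 CPM in ferulic acid plus LPS. The control and LPS libraries overlapped, and the call (log2 fold change 1.72, SE 0.60, adjusted p = 0.0156) was lost under 6 of 22 alternatives, among them each fit without control library 2, control library 4 or LPS library 4. Without control library 1 the value was 2.51.

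In the ATG8 family, whose proteins coat the phagophore and bind receptors, 4 of 5 genes were called higher and 1 lower with TMM scaling. Gabarap had 200, 253, 231 and 201 CPM in control, 1275, 1268, 1080 and 1106 CPM in LPS and 1443, 725, 1175 and 1500 CPM in ferulic acid plus LPS libraries. Each LPS library exceeded every control library, 5.34-fold by the fit (log2 fold change 2.42, SE 0.20, adjusted p = 1.2e-08; 1.52 with library size scaling). Map1lc3a, which encodes LC3A, had 3.44, 4.25, 4.02 and 2.73 CPM in control, 23.2, 22.1, 21.3 and 24.2 CPM in LPS and 23.6, 13.1, 27.5 and 23.0 CPM in ferulic acid plus LPS libraries. Its LPS and control libraries did not overlap either (log2 fold change 2.65, SE 0.21, adjusted p = 9.0e-09; 1.75 with library size scaling). Gabarapl1 stood at 37.9, 37.6, 38.9 and 32.9 CPM in control, 88.1, 82.9, 109 and 104 CPM in LPS and 62.0, 119, 90.6 and 54.4 CPM in ferulic acid plus LPS libraries. It rose with TMM scaling (1.38, SE 0.20, adjusted p = 1.0e-05) and was not called with library size scaling (0.49, adjusted p = 0.0904). Gabarapl2 changed from 42.3 ± 5.50 to 72.8 ± 3.93 CPM (0.79, SE 0.12, adjusted p = 2.2e-05), a direction that turned with library size scaling (-0.11).

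Map1lc3b encodes LC3B, the protein most often followed as an autophagosome marker. It changed from 79.2 ± 4.39 to 61.8 ± 2.32 CPM (-0.36, SE 0.11, adjusted p = 0.00753), lower still with library size scaling (-1.26) but higher with the length trend removed (0.31, adjusted p = 0.0293). A share within the family does not depend on scaling between libraries, but it does carry any trend with length. Per length, Map1lc3b made up 6.22% ± 0.365 of the ATG8 family's summed FPKM in control and 1.10% ± 0.0701 in LPS libraries, and Gabarap 70.5% ± 1.11 and 85.7% ± 1.66. The ranges of both shares were separate between the groups. The family's summed FPKM was 258 ± 21.4 in control libraries, 608 ± 15.9 after LPS alone and 600 ± 81.6 after ferulic acid plus LPS. The plot of shares shows this beside the receptors and the genes of the lipid kinase complexes.

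**Figure D3:**
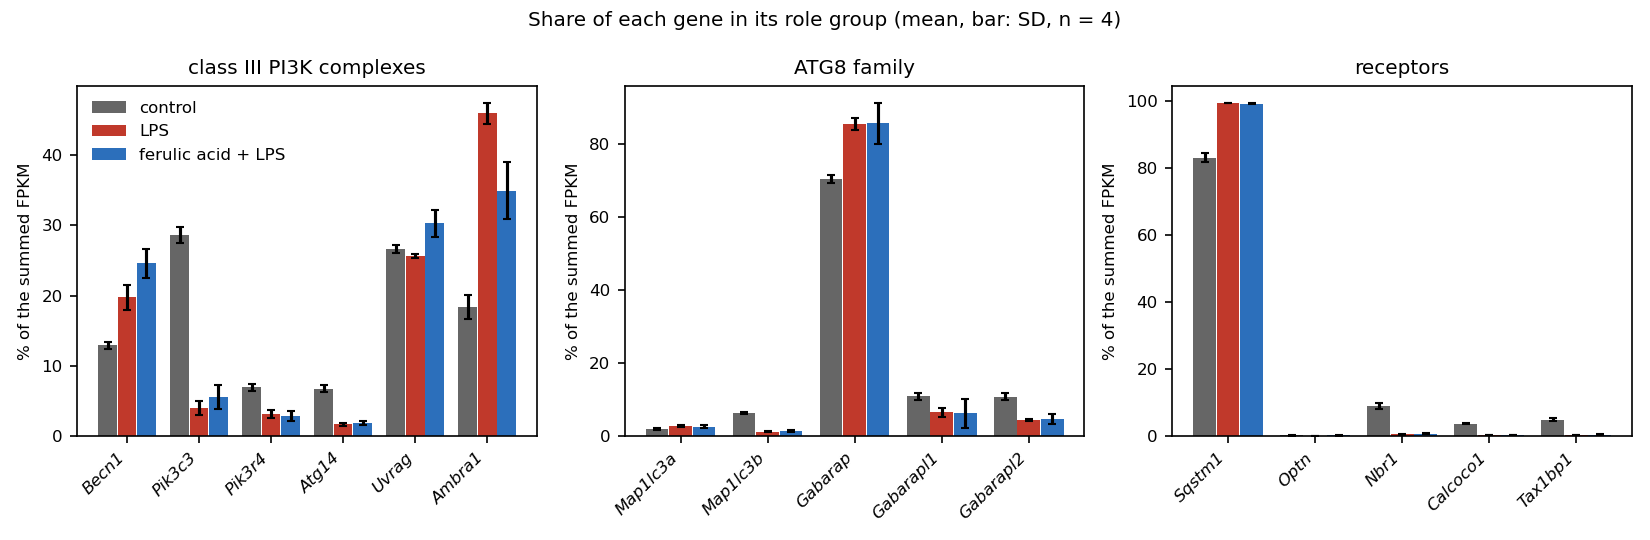
Share of each gene in the summed FPKM of its role group, for the class III phosphatidylinositol 3-kinase genes, the ATG8 family and the receptors; bars are means of 4 libraries, whiskers SD, grey control, red LPS, blue ferulic acid plus LPS. Gabarap goes from 70.5% to 85.7%, Sqstm1 from 83.0% to 99.4% and Pik3c3 from 28.7% to 3.90% between control and LPS.

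Class III phosphatidylinositol 3-kinase genes included the largest falls, with 4 of 6 called lower and 1 higher. Pik3c3 encodes the catalytic subunit VPS34, which makes the phosphatidylinositol 3-phosphate that recruits WIPI proteins. It had 50.1, 42.0, 47.2 and 50.3 CPM in control, 3.52, 5.71, 3.92 and 4.22 CPM in LPS and 5.01, 5.69, 4.03 and 6.91 CPM in ferulic acid plus LPS libraries. All LPS libraries were far below all control libraries, 10.9-fold by the fit (log2 fold change -3.45, SE 0.19, adjusted p = 1.1e-10; -4.35 with library size scaling and -3.16 with the length trend removed). Atg14, the subunit that directs the kinase to sites of autophagosome formation, had 10.4, 10.1, 10.0 and 12.1 CPM in control, 1.78, 1.43, 1.86 and 1.84 CPM in LPS and 1.42, 1.91, 1.76 and 1.73 CPM in ferulic acid plus LPS libraries. The groups again did not overlap (-2.62, SE 0.20, adjusted p = 4.1e-09; -3.52 with library size scaling). Pik3r4, the regulatory subunit VPS15, had 28.8, 23.0, 22.4 and 24.2 CPM in control, 6.97, 6.06, 6.49 and 10.5 CPM in LPS and 3.17, 8.97, 6.78 and 6.13 CPM in ferulic acid plus LPS libraries. It fell by 1.71 on the log2 scale (SE 0.25, adjusted p = 1.1e-05; -2.60 with library size scaling and -0.85 with the length trend removed) with no overlap.

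The other 3 subunits had smaller changes. Becn1, the scaffold beclin 1, measured 33.6 ± 2.37 CPM in control and 34.9 ± 3.06 in LPS cells and was not called (0.05, SE 0.17, 95% interval -0.30 to 0.41), though it was called lower with library size scaling (-0.84) and higher with the length trend removed (0.68). An exon of Cntd1 overlaps it by 1297 bp on the opposite strand, with 38 reads against 17953. Uvrag, the subunit of the complex that acts in endosomes and autophagosome maturation, changed from 89.0 ± 5.71 to 58.2 ± 5.86 CPM (-0.61, SE 0.17, adjusted p = 0.00316), with the sign turned after removal of the length trend (0.19). Ambra1, a beclin 1 partner that regulates the complex, changed from 41.4 ± 2.73 to 70.8 ± 8.77 CPM (0.77, SE 0.16, adjusted p = 3.3e-04), and its sign turned with library size scaling (-0.12). Per length, Pik3c3 went from 28.7% ± 1.16 to 3.90% ± 0.968 of the group's summed FPKM and Ambra1 from 18.3% ± 1.74 to 46.0% ± 1.52, with no overlap in either. The summed FPKM of the 6 genes was 56.2 ± 3.89 in control and 20.5 ± 2.90 in LPS libraries, a difference that includes the all-gene shift on this scale.

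Of the 5 ULK1 complex genes, 3 were called lower and 1 higher. Ulk1, the kinase that starts autophagy, had 18.5, 15.9, 16.7 and 14.4 CPM in control, 5.62, 5.57, 4.63 and 6.06 CPM in LPS and 4.80, 6.14, 6.01 and 4.22 CPM in ferulic acid plus LPS libraries. LPS and control libraries were separate (-1.58, SE 0.17, adjusted p = 3.9e-07; -2.48 with library size scaling and -1.02 with the length trend removed). Its relative Ulk2 fell from 15.4 ± 0.601 to 8.02 ± 1.01 CPM (-0.94, SE 0.17, adjusted p = 7.6e-05; -1.84 with library size scaling and -0.44 with the length trend removed). Rb1cc1, which encodes the scaffold FIP200, had 14.8, 13.1, 16.5 and 18.0 CPM in control, 9.36, 9.40, 6.89 and 6.64 CPM in LPS and 11.6, 7.03, 7.27 and 10.2 CPM in ferulic acid plus LPS libraries. Its control libraries all exceeded its LPS libraries with TMM scaling (-0.95, SE 0.20, adjusted p = 3.5e-04), but the sign turned with the length trend removed (0.23), and at 14690 bp it is the longest of the 38 genes. Atg13, the adaptor that joins ULK1 to FIP200, had 57.0, 60.1, 57.0 and 58.5 CPM in control, 140, 138, 136 and 177 CPM in LPS and 84.4, 124, 122 and 72.4 CPM in ferulic acid plus LPS libraries. The LPS libraries all lay above the control libraries (1.344, SE 0.17, adjusted p = 1.8e-06), with no call under library size scaling (0.45, adjusted p = 0.0633). Atg101, the partner that stabilises ATG13, measured 24.5 ± 1.94 and 31.5 ± 5.04 CPM, overlapped and was not called (0.36, SE 0.19, adjusted p = 0.0920), with the opposite sign under library size scaling (-0.54).

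ATG9 vesicles, the ATG2 lipid transfer proteins and the WIPI lipid readers bring membrane to the phagophore, and 4 of these 6 genes were called lower and 1 higher. Atg9a and Atg9b encode lipid scramblases of the same family and went opposite ways with TMM scaling. Atg9b had 19.9, 20.6, 20.3 and 22.1 CPM in control, 9.76, 5.50, 8.20 and 7.54 CPM in LPS and 6.27, 4.93, 6.48 and 7.20 CPM in ferulic acid plus LPS libraries. Control and LPS libraries did not overlap (-1.42, SE 0.18, adjusted p = 2.0e-06; -2.32 with library size scaling), while an exon of Nos3 on the opposite strand overlaps Atg9b by 294 bp, with 885 reads against 6748. Atg9a changed from 22.4 ± 1.63 to 48.6 ± 5.52 CPM (1.11, SE 0.15, adjusted p = 6.1e-06) and was not called with library size scaling (0.21, adjusted p = 0.322). Atg2b had 64.4, 60.4, 54.0 and 57.1 CPM in control, 14.6, 20.5, 26.7 and 23.4 CPM in LPS and 14.4, 35.3, 15.3 and 11 CPM in ferulic acid plus LPS libraries. It fell without overlap (-1.47, SE 0.28, adjusted p = 1.7e-04), a call lost with the length trend removed (-0.37, adjusted p = 0.165). An exon of Gskip overlaps Atg2b by 383 bp on the opposite strand, and Gskip had 5037 reads against 19477, so part of this value may be shared. Wipi1, which binds phosphatidylinositol 3-phosphate, had 4.95, 5.48, 5.31 and 6.87 CPM in control, 2.43, 2.30, 2.90 and 2.58 CPM in LPS and 1.95, 4.09, 3.51 and 2.13 CPM in ferulic acid plus LPS libraries. All its LPS libraries were below all control libraries (-1.14, SE 0.25, adjusted p = 6.1e-04; -2.04 with library size scaling). Atg2a changed from 39.1 ± 3.35 to 21.2 ± 3.75 CPM (-0.88, SE 0.18, adjusted p = 3.2e-04; -0.20 and not called with the length trend removed). Wipi2, the WIPI protein that recruits ATG16L1, measured 70.6 ± 1.10 and 53.5 ± 6.12 CPM with no overlap, and was not called (-0.40, SE 0.20, adjusted p = 0.0738). It was called lower under 9 alternatives, library size scaling among them (-1.29), and higher with the length trend removed (0.52).

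The 11 genes of ubiquitin-like conjugation and the ATG4 proteases divided into 6 called higher, 2 lower and 3 not called with TMM scaling. The ATG4 proteases, which trim ATG8 proteins and release them from membranes, went both ways. Atg4d had 24.3, 21.7, 23.3 and 19.0 CPM in control, 70.3, 64.7, 48.2 and 50.3 CPM in LPS and 56.7, 36.3, 59.6 and 59.8 CPM in ferulic acid plus LPS libraries. Each LPS library exceeded each control library (1.40, SE 0.18, adjusted p = 1.9e-06; 0.50 with library size scaling and 2.06 with the length trend removed). An exon of Kri1 overlaps Atg4d by 792 bp on the opposite strand, and Kri1 had 14016 reads against 19666, so part of this value may be shared between the genes. Atg4c had 11.1, 9.61, 9.88 and 12.5 CPM in control, 6.02, 2.64, 4.39 and 7.27 CPM in LPS and 5.21, 7.95, 5.74 and 3.78 CPM in ferulic acid plus LPS libraries. It was lower in every LPS library than in any control library (-1.08, SE 0.27, adjusted p = 0.00183; -1.98 with library size scaling). Atg4a (0.40, SE 0.13, adjusted p = 0.0124) and Atg4b (0.57, SE 0.13, adjusted p = 9.9e-04) were higher with TMM scaling and turned with library size scaling (-0.50 and -0.32). Atg4a-ps, an annotated copy of Atg4a, held 143 reads beside the 9687 of Atg4a.

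Within the conjugation machinery Atg16l1, which places the conjugation enzyme on the membrane, had 26, 29.0, 26.6 and 26.1 CPM in control, 14.2, 13.1, 14.7 and 14.2 CPM in LPS and 12.2, 14.5, 13.8 and 9.26 CPM in ferulic acid plus LPS libraries. The groups did not overlap (-0.94, SE 0.15, adjusted p = 2.2e-05), and the call was lost with the length trend removed (-0.08, adjusted p = 0.602). Its paralogue Atg16l2 went from 21.3 ± 2.01 to 31.2 ± 6.31 CPM (0.55, SE 0.19, adjusted p = 0.0152; -0.36 with library size scaling), and that call was lost without control library 4 and without LPS library 1. Atg12, the ubiquitin-like protein joined to ATG5, changed from 29.3 ± 0.826 to 50.1 ± 5.04 CPM (0.78, SE 0.12, adjusted p = 2.4e-05; -0.12 with library size scaling). Atg7, the enzyme that activates both ATG12 and ATG8 proteins, changed from 51.3 ± 3.84 to 90.2 ± 9.92 CPM (0.81, SE 0.18, adjusted p = 5.6e-04; -0.08 with library size scaling). The conjugating enzyme genes Atg3 (-0.18, SE 0.16) and Atg10 (-0.02, SE 0.27) and the ATG12 acceptor Atg5 (0.11, SE 0.13) were not called with TMM scaling. With library size scaling all 3 were called lower, Atg3 at -1.08, Atg10 at -0.91 and Atg5 at -0.79, where Atg5 turned its sign.

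Promoter sequences were read from RefSeq (GRCm38.p6, 250 bases before the annotated start) for the 32 of 38 members in that table, to set the largest riser beside the few members that hold motifs known for factors of this response. Sqstm1 is shown because it had the largest change and holds an NF-kB consensus match, Atg16l2 because it is the only other member with one, and Atg3 because it alone held the CLEAR-box core bound by TFEB. Capitals mark the matches. Sqstm1 lies at chr11:50210821-50211070 on the minus strand, Atg16l2 at chr7:101302089-101302338 on the minus strand and Atg3 at chr16:45158579-45158828 on the plus strand, each written 5′ to 3′.
Sqstm1: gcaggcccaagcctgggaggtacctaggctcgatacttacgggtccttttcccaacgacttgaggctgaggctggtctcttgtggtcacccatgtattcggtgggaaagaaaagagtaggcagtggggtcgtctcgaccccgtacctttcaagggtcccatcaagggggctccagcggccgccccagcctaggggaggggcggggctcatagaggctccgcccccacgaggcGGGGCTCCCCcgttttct
Atg16l2: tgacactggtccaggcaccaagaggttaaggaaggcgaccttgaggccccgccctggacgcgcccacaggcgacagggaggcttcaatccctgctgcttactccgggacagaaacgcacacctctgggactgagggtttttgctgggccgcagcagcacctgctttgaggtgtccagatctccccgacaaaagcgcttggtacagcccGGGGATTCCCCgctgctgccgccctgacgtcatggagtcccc
Atg3: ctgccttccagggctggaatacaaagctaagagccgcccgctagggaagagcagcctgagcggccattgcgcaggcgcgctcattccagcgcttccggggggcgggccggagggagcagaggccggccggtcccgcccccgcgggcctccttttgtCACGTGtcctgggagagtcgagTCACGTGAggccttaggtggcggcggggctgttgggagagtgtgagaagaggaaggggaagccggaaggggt
The NF-kB match of Sqstm1 began at position -18 from the start, and Atg16l2 held 2 overlapping matches that began at -42 and -41. Promoters of the same length were given for 27025 mouse genes, and 4.46% of those genes held an NF-kB consensus match on either strand, against 2 of the 32 members. The CLEAR-box core TCACGTGA was in 1 member and in 0.907% of genes. The E-box CACGTG, which lies within that core, was in 3 members (Atg3, Atg5 and Atg7) and in 6.86% of genes. The antioxidant response element core TGACNNNGC was in 3 members (Atg13, Tax1bp1 and Ulk2) and in 11.5% of genes. Of these 8 genes with a match, LPS called Sqstm1, Atg16l2, Atg7 and Atg13 higher and Ulk2 and Tax1bp1 lower with TMM scaling, and Atg3 and Atg5 were not called. A match describes these letters and shows no binding.

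Other genes of the pathway came from a list of 51 genes, of which 48 were tested. LPS called 15 of them higher and 22 lower with TMM scaling, 77.1% against 73.8% of all genes (35.6% higher and 38.3% lower). Library size scaling gave 3 higher and 33 lower (all genes 17.5% and 59%). Among kinases that sense nutrients and energy 2 of 11 were higher and 5 lower, among transcription factors of autophagy and lysosome genes 0 of 6 and 4, among lipid kinase partners and phagophore genes 4 of 9 and 2, among genes of fusion with lysosomes 2 of 10 and 7, and among mitophagy and endoplasmic reticulum receptors 7 of 12 and 4. Deptor, an inhibitor of the mTOR kinase, had 1823, 1283, 1974 and 1445 reads in the control libraries, 6525 in all, and 0 in each LPS library, which is at least 1219-fold lower with a floor of 3 reads over the group. Bnip3, a mitophagy receptor, fell from 117 ± 9.25 to 21.4 ± 1.84 CPM (-2.45, SE 0.17, adjusted p = 1.9e-09), with 106, 128, 119 and 114 CPM in control and 18.7, 22.1, 22.1 and 22.7 CPM in LPS libraries. Plekhm1, an adaptor of lysosome fusion, fell from 193 ± 6.70 to 57.9 ± 14.5 CPM (-1.73, SE 0.19, adjusted p = 4.2e-07), with 199, 189, 197 and 185 CPM against 48.1, 49.9, 54.2 and 79.3 CPM. All 3 were lower in every LPS library than in any control library. Fkbp8, another mitophagy receptor, rose from 134 ± 16.1 to 606 ± 126 CPM (2.18, SE 0.25, adjusted p = 6.6e-07), with 125, 149, 146 and 116 CPM against 745, 676, 470.2 and 534 CPM. Vmp1, a lipid scramblase of the endoplasmic reticulum needed for phagophore formation, rose from 58.0 ± 4.05 to 198 ± 16.8 CPM (1.77, SE 0.15, adjusted p = 2.1e-08), with 54.8, 63.7, 55.4 and 58.0 CPM against 194, 204, 217 and 177 CPM. Tex264, a receptor for endoplasmic reticulum autophagy, rose from 26.1 ± 2.87 to 71.0 ± 8.96 CPM (1.44, SE 0.15, adjusted p = 2.0e-07), with 24.9, 30.0, 26.2 and 23.3 CPM against 83.2, 68.6, 61.8 and 70.6 CPM. These 3 were higher in every LPS library than in any control library. These 6 kept call and sign under all 23 alternatives, but their size moved. With library size scaling Fkbp8 was at 1.27, Vmp1 at 0.88, Tex264 at 0.54, Bnip3 at -3.34 and Plekhm1 at -2.62.

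LPS cells with and without pretreatment were then compared, to see what ferulic acid changed. Sqstm1 had the smallest p of the 38 genes. Its ferulic acid plus LPS libraries (3264 to 5318 CPM) all lay below its LPS libraries (5570 to 7098 CPM), and the fit gave a log2 fold change of -0.59 (SE 0.16, 95% interval -0.93 to -0.24), which missed the threshold (adjusted p = 0.0939). By edgeR 0 of 38 members were called, against 0.284% of all genes (0.0853% higher and 0.199% lower), 9 members had an unadjusted p under 0.05 (23% of all genes did), and DESeq2 called 4 of the 36 it gave an adjusted p (10.5% of all genes). The groups did not overlap for 5 members, against 7.02% of all genes. Atg13, Atg7 and Sqstm1 lay below LPS and Atg5 and Atg4a above it. The members' median log2 fold change was -0.01 and that of all genes 0.02.

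Atg7 had the largest negative value. It measured 91.2, 85.7, 80.3 and 103 CPM in LPS and 44.7, 71.7, 78.4 and 44.1 CPM in ferulic acid plus LPS libraries, with a gap of less than 2 CPM between the groups (-0.59, SE 0.18, adjusted p = 0.101). Atg13 stood at 136 to 177 CPM in LPS and 72.4 to 124 CPM in ferulic acid plus LPS libraries (-0.55, SE 0.17, adjusted p = 0.102). Ambra1 measured 62.3, 66.1, 72.5 and 82.3 CPM against 40.5, 63.8, 52.7 and 38.3 CPM, which overlapped in 1 library (-0.54, SE 0.16, adjusted p = 0.101). In the other direction Atg5 measured 31.3, 28.4, 28.4 and 28.1 CPM against 37.7, 32.2, 31.7 and 43.5 CPM (0.32, SE 0.13, adjusted p = 0.169), and Atg4a 21.3, 21.6, 22 and 16.5 CPM against 28.3, 25.0, 23.6 and 27 CPM (0.35, SE 0.13, adjusted p = 0.146). Atg7, Ambra1, Atg5 and Atg4a were singled out here after their values were seen. Pik3c3 (95% interval -0.08 to 0.71), Atg14 (-0.43 to 0.41), Gabarap (-0.36 to 0.43) and Map1lc3b (-0.24 to 0.22) had intervals that include 0.

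Which ferulic acid plus LPS libraries entered decided the calls. The pairs left out were picked from the second principal component of these same data. Calls and p-values of the fits without a pair therefore describe the chosen libraries and are not a test of ferulic acid. Without libraries 2 and 3 of that group 15 of 38 members were called, where 37.7% of all genes were. Of these 3 were higher (Atg3, Atg5 and Atg4a; 17.9% of all genes) and 12 lower (19.8% of all genes). Without libraries 1 and 4 the members called were 0, with 0.0465% of all genes called, both by edgeR. For Sqstm1 the log2 fold change was -0.86 (adjusted p = 8.9e-05) without libraries 2 and 3 and -0.37 (adjusted p = 0.462) without libraries 1 and 4, for Atg7 -1.04 and -0.26, for Atg13 -0.93 and -0.26, and for Ambra1 -0.86 and -0.28. In the same order Atg5 was at 0.47 and 0.14, Atg4a at 0.43 and 0.26, Pik3c3 at 0.45 and 0.17, and Gabarap at 0.30 and -0.31, which turned its sign. Leaving out library 2 alone gave 8 calls, all lower (9.22% of all genes were called lower), and library 3 alone 4, all lower (4.87% of all genes), with Atg13, Atg7 and Sqstm1 among both. DESeq2 called Ambra1, Atg13, Atg7 and Sqstm1 lower (5.34% of all genes were). A fit with no low-count filter called Atg13, Atg7 and Sqstm1, and 2.85% of its 25192 genes were called. That total takes in the low-count genes that the filter leaves out, whereas all 38 members pass it, so the 2 shares are not alike. Ribosomal protein genes took 21.0% of reads in libraries 1 and 4, 13.2% in library 2 and 16.7% in library 3, against 14.2% to 16.3% in LPS libraries, and the part of these differences in the result was not tested. The plot of the ferulic acid comparison shows all 38 genes with each pair left out. Of the 48 tested pathway genes 0 were called by edgeR, 15 had an unadjusted p under 0.05 (23% of all genes), and DESeq2 called 5 of 47 (10.5% of all genes).

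**Figure D4:**
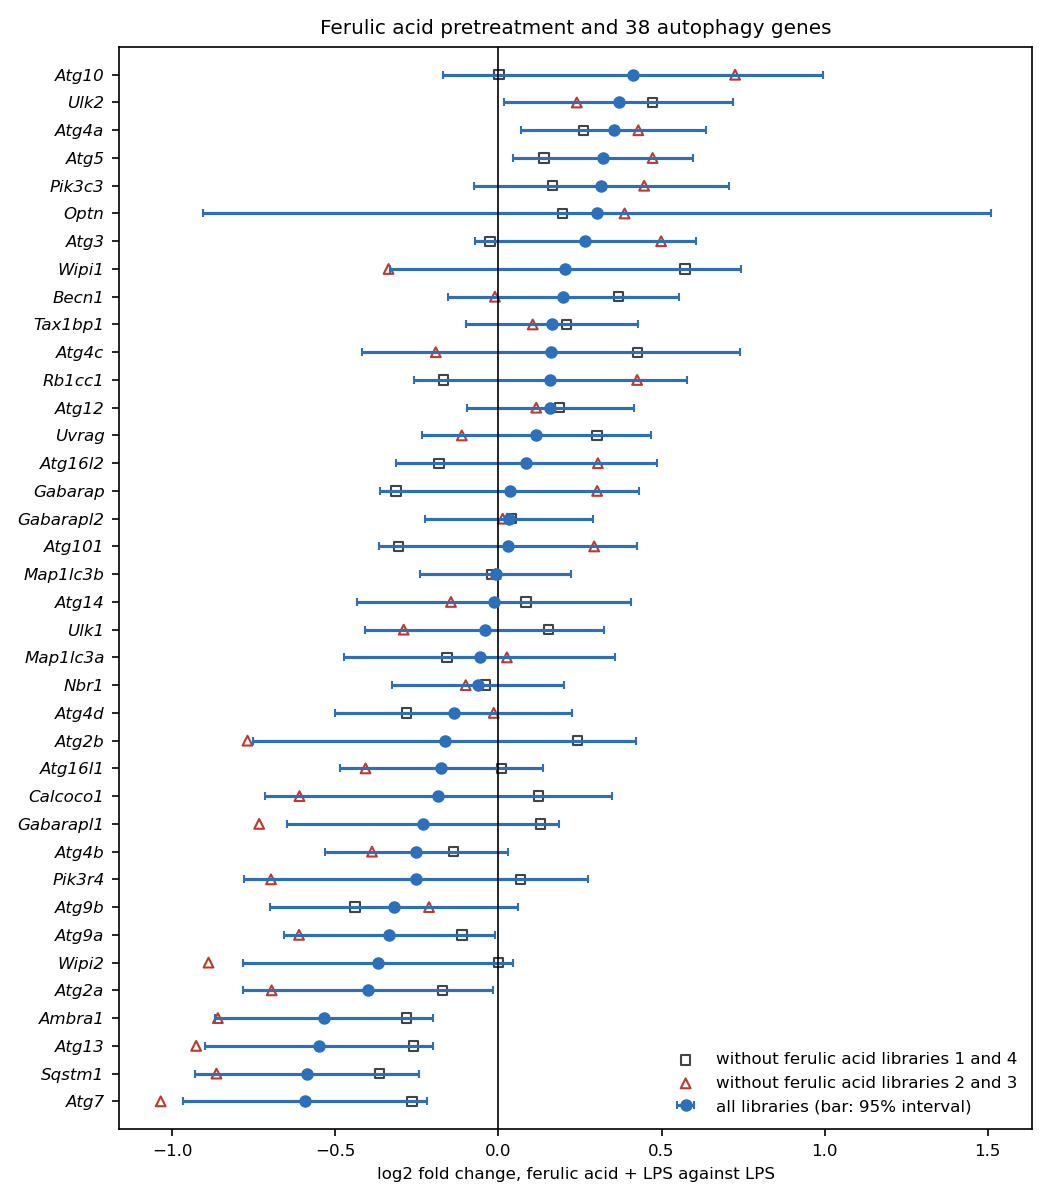
Log2 fold change of ferulic acid plus LPS against LPS for the 38 genes with all libraries (blue, bars are 95% intervals), without ferulic acid plus LPS libraries 1 and 4 (open squares) and without libraries 2 and 3 (open triangles). Atg7, Sqstm1, Atg13 and Ambra1 lie left of 0 in all 3 fits, at -0.26 to -1.04 for Atg7, and are farthest from 0 without libraries 2 and 3.

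Against control, ferulic acid plus LPS called 14 members higher and 18 lower, 84.2% where 73.3% of all genes were called (35.8% higher, 37.5% lower, 75.2% at an unadjusted p under 0.05), and libraries did not overlap for 30 members (68.2% of all genes). Library size scaling gave 3 higher and 25 lower (all genes 18% and 58.8%). This comparison uses the same control libraries as LPS against control, so the values are set side by side without a test between them. Sqstm1 was at 3.42 (SE 0.18) against 4.01 in LPS cells, Gabarap at 2.45 (SE 0.20) against 2.42 and Map1lc3a at 2.59 (SE 0.21) against 2.65. Pik3c3 was at -3.13 (SE 0.19) against -3.45, Atg14 at -2.64 (SE 0.20) against -2.62, Calcoco1 at -1.90 (SE 0.25) against -1.71 and Ulk1 at -1.62 (SE 0.17) against -1.58. Without libraries 1 and 4, and then without 2 and 3, the values were 3.65 and 3.14 for Sqstm1, 2.11 and 2.72 for Gabarap, 2.49 and 2.67 for Map1lc3a, -3.28 and -3.01 for Pik3c3, -2.53 and -2.77 for Atg14, -1.59 and -2.33 for Calcoco1, and -1.43 and -1.88 for Ulk1. With all libraries these 7 genes had an adjusted p of at most 4.2e-06 in this comparison. Of the pathway genes 14 were higher and 23 lower. Fkbp8 (2.23, SE 0.25), Vmp1 (2.11, SE 0.15) and Retreg1, a receptor for endoplasmic reticulum autophagy (1.58, SE 0.20), rose most, while Plekhm1 (-2.56, SE 0.20) and Bnip3 (-2.14, SE 0.17) fell. Retreg1 measured 33.7, 31.0, 31.6 and 37.2 CPM in control and 115, 73.8, 70.6 and 139 CPM in ferulic acid plus LPS libraries, and was at 1.12 without libraries 1 and 4 and 1.91 without 2 and 3. In that order Fkbp8 was at 1.82 and 2.53, Vmp1 at 1.83 and 2.34, Plekhm1 at -2.27 and -2.93, and Bnip3 at -2.50 and -1.86. Deptor had 6 reads in the ferulic acid plus LPS libraries, 4 in library 1 and 2 in library 2, which is 0.00168 of its control level (95% exact binomial interval 6.1e-04 to 0.00365).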

How the data were processed

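RAW264.7 poly(A) RNA was measured in 12 libraries, and the members and lists were chosen with earlier results of these data known. The authors deposited whole-number read counts per gene with no normalization, per the file headers, and FPKM values beside them, which equal the count divided by gene length and library total (tested on the table). The build named in the submitters' processing notes is GRCm39, and the tools are edgeR 3.36.0, featureCounts 2.0.6, HISAT2 2.2.1, fastp 0.23.4 and DESeq2 1.34.0, with no annotation or strand setting stated. No genome coordinates are given but those of RefSeq promoters, which are of GRCm38.p6. Exon overlaps were read from GENCODE vM21, which is also of GRCm38 and need not be the annotation behind the counts.

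From the counts, edgeR 4.0.16 (limma 3.58.1, R 4.3.3) fitted all 12 libraries with group as the only term, TMM scaling and filterByExpr, which kept 14065 of 25192 genes and left out 0.0421% of reads. Calls use edgeR's quasi-likelihood F test, unless another tool is named, with Benjamini-Hochberg adjustment across the tested genes and a threshold of 0.05. Each SE was obtained from the log2 fold change and its F statistic, and intervals are 95%. The scripts were tested on simulated data. Libraries of a group differed by more than sampling noise (chi-square per gene 11.6 or more in every pair). Depth ran from 32548423 to 49961581 counts, and read intervals and floors cover counting error only.

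Per-library values were given for up to 3 called members of each role with the largest LPS change and for the member of smallest p where ferulic acid gave no call, and for the 3 largest rises and falls among pathway genes in each comparison against control, where genes already shown are not repeated; those of Atg7, Ambra1, Atg5 and Atg4a were added after their values were seen. Alternatives were library size scaling, DESeq2 1.42.0, other filters, a replicate block, the compared groups only, limma on log2(FPKM + 1) and log2(FPKM + 0.1), a per-library length trend (lowess span 0.5) and leaving out libraries.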

Additional observations from a re-analysis of the deposited data

Results flagged for a closer look

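In a group of 4 libraries, 1 library stood apart where its gap to the nearest other library as a share of the group's range exceeded Dixon's 95% critical value. Among 114 groups checked (38 genes in 3 groups) 10 did so, where chance gives about 1 in 20. In LPS library 4, Atg13 was at 177 CPM with the others at 136 to 140, Sqstm1 at 7098 CPM with the others at 5570 to 5783, and Atg4a at 16.5 CPM with the others at 21.3 to 22. In LPS library 1, Atg5 was at 31.3 CPM with the others at 28.1 to 28.4. Ferulic acid plus LPS library 2 had Becn1 at 57.6 CPM (others 32.5 to 36.3), Uvrag at 90.9 CPM (others 52.5 to 55.1) and Atg4d at 36.3 CPM (others 56.7 to 59.8). In ferulic acid plus LPS library 3, Atg4b was at 68.1 CPM with the others at 46.6 to 49.5, and in library 1 Tax1bp1 was at 31.3 CPM with the others at 35.5 to 36.2. Atg3 was at 44.2 CPM in control library 4 with the others at 38 to 38.6.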

How the results depend on the processing

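LPS against control, as counts of genes higher and lower, went from 5003 and 5381 (members 15 and 17, pathway genes 15 and 22) to 2467 and 8305 (members 4 and 24, pathway genes 3 and 33) with library size scaling, 2531 and 8544 (4 and 24, 3 and 33) with limma on log2(FPKM + 1) and 2565 and 8521 (4 and 24, 3 and 34) with limma on log2(FPKM + 0.1). With the length trend removed all genes were 5363 and 4485, members 18 and 10 and pathway genes 25 and 12. Log2 fold changes that turned sign under library size scaling, limma on log2(FPKM + 1) and limma on log2(FPKM + 0.1), in that order, were Atg101 (-0.54, -0.52, -0.55), Becn1 (-0.84, -0.71, -0.83), Ambra1 (-0.12, -0.12, -0.13), Atg5 (-0.79, -0.73, -0.78), Atg7 (-0.083, -0.0805, -0.0876), Atg12 (-0.12, -0.11, -0.12), Atg16l2 (-0.36, -0.28, -0.35), Atg4a (-0.50, -0.44, -0.50), Atg4b (-0.32, -0.28, -0.32) and Gabarapl2 (-0.11, -0.10, -0.11). With the length trend removed Rb1cc1 (0.23), Uvrag (0.19), Wipi2 (0.52) and Map1lc3b (0.31) turned. Atg101 (-0.029) and Atg5 (-0.024) also changed sign there, but were called neither in that fit nor in the main one. Ferulic acid plus LPS against control moved from 5038 and 5277 (members 14 and 18, pathway 14 and 23) to 2536 and 8268 (3 and 25, 4 and 35), 2572 and 8600 (3 and 26, 4 and 36) and 2593 and 8591 (4 and 26, 4 and 36) in the same 3 settings. With the length trend removed 11 members and 14 pathway genes were called lower. The all-gene share of that fit is not given here, so these counts are not a result about the members. Only members picked by the rule for per-library values were followed gene by gene in this comparison, so turns of other members are not listed. Of those followed, Atg13 turned in the first 3 settings (-0.0794, -0.14, -0.15) and Rb1cc1 with the length trend removed (0.35).

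Ferulic acid plus LPS against LPS had 12 genes higher and 28 lower, with 0 members and 0 pathway genes. DESeq2 gave 509 and 532 (members 0 and 4, pathway 1 and 4), no low-count filter 432 and 287 (0 and 3, 2 and 4), a filter of 10 CPM 25 and 46, library size scaling 0 and 2, the compared groups only 0 and 0, limma 0 and 1 or 0 and 0, the length trend removed 23 and 67 (pathway 0 and 2), the fit without ferulic acid plus LPS libraries 1 and 4 gave 4 and 3, and without libraries 2 and 3 it gave 2685 and 2979 (members 3 and 12, pathway 13 and 19). Leaving out each library gave 0 to 1334 higher and 0 to 1336 lower (members 0 and 0 to 8, pathway 0 to 5 and 0 to 10), with the high end without ferulic acid plus LPS library 2 and 709 and 706 without library 3. The cause of these moves was not tested. Among single members the LPS comparison gave 794 of 871 values with the same call, 22 that lost it, 21 that gained one and 34 that turned. A value counted as turned only where the main fit or the alternative called the gene. Many alternatives leave out 1 library, or only ferulic acid plus LPS libraries, which LPS against control does not compare. The same call there is close to given in advance. With library size scaling, and with each limma fit, 21 of the 32 called members kept call and sign.

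Samples share replicate numbers, and the labels do not say whether the numbers pair them. Deviations of same-numbered libraries from their group means had correlations of -0.16 to 0.06. With 4 libraries in a group this cannot exclude pairing. With the replicate block ferulic acid plus LPS against LPS gave 0 and 0 genes and 0 members. LPS against control gave 4810 and 5231 genes (members 15 and 17) there, and ferulic acid plus LPS against control 13 and 18 members. For that last comparison the all-gene share with the block is not given here, so its counts are not a result about the members. In 1 of 12 cases the same number was the best match. Atg10, Optn and Wipi1 gave no value under the filter of 10 CPM. Depth limits Optn and Deptor, whose group sums were as low as 52 and 0 reads.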

Other observations

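Within the ferulic acid plus LPS group the ATG8 genes did not move together between libraries. Gabarap was lowest in library 2 (725 CPM, others 1175 to 1500) and so was Map1lc3a (13.1 CPM, others 23.0 to 27.5), whereas Gabarapl1 was highest there (119 CPM, others 54.4 to 90.6). Map1lc3b (57.2 to 64.7 CPM) and Gabarapl2 (68.5 to 79.8 CPM) varied little across the same 4 libraries. Library 2 also stood apart over all genes, at 60.9 on the first principal component with the others of its group at 86.5 to 97.6. How many of all genes were lowest or highest in library 2 was not counted, so the pattern cannot be called particular to ATG8 genes.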
